A study of Mus musculus with 6 samples.

Results

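miR-221 and miR-222 are microRNAs, short RNAs that guide Argonaute proteins to partly complementary messenger RNAs and lower their output. They were followed here in the sensorimotor cortex as the 2 neighbouring hairpin genes Mir221 and Mir222, of 1174 named hairpins. A read of 18 to 26 nt belonged to them when it matched either hairpin on its own strand without mismatch, and to the 5p or 3p arm by the side of the hairpin on which its midpoint lay. The 4 arms of these hairpins were among 1421 arms with a read, and they comprised 181 distinct reads, each of which matched 1 place only. All 4 arms passed the filter on low counts and were among the 690 arms tested.

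The samples were male C57BL/6J mice at postnatal day 90. In 3 mice the cervical spinal cord was cut through completely (SCI), and in 3 mice the cord was exposed but left undamaged (control). The sensorimotor cortex was taken 7 days after surgery from each mouse separately, with no transgene or drug named in the labels. The cortex lies far from the lesion and holds neurons whose axons descend into the cord. Libraries held 14628518 to 23408028 reads in the SCI group and 10585062 to 24480988 in the control group, of which 72.9% to 78.2% and 78.1% to 78.9% were counted in microRNA arms.

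miR-221 and miR-222 are made from a shared primary transcript, and Drosha and then Dicer cut each hairpin into a 5p and a 3p strand. Which transcripts a strand can pair with depends largely on its seed, the bases 2 to 8 counted from its 5′ end. The pair is known for repressing Cdkn1b, which encodes the cell cycle inhibitor p27, and Kit, a receptor tyrosine kinase. It is well studied in proliferating cells, in endothelium and in vascular smooth muscle, and in rats it has been studied in Schwann cells after nerve injury.

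Both genes lie on the minus strand of the X chromosome in GRCm38 as single-exon noncoding miRNA genes. Mir221 (ENSMUSG00000065422.1) spans chrX:19146294-19146388 and Mir222 (ENSMUSG00000065471.1) spans chrX:19146893-19146971, with 504 bases between them. The nearest other annotated gene is the long noncoding Gm14636 (ENSMUSG00000073274.4), 10010 bp away. The hairpins, whose sequences are the same in RefSeq on this build, are shown with capitals for the read seen most often on either side, to place the 5p and 3p strands.
Mir221 hairpin: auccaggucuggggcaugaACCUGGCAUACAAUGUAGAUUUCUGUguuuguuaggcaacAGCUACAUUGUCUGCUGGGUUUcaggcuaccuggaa
Mir222 hairpin: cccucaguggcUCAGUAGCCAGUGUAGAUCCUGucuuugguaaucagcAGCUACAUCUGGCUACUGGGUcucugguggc

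The RefSeq mature sequences follow, 5′ to 3′, with the seed in capitals, since the seed is what the 3p strands have in common. The table holds 3 of the 4 arms, and miR-222-5p is shown further on by its own reads.
miR-221-3p: aGCUACAUugucugcuggguuuc
miR-222-3p: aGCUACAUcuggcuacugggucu
miR-221-5p: aCCUGGCAuacaauguagauuucugu
The 3p strands have the same first 8 bases and therefore the same seed, and 11 of their 23 bases are identical when the strands are laid side by side without gaps. The 5p strand of Mir221 carries a different seed. Among the most abundant reads of all arms with a read, no arm other than miR-221-3p and miR-222-3p had this seed. The pair was therefore the whole seed family in these libraries by that measure.

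The 3p strands of both hairpins were abundant and were somewhat lower after transection, but neither difference passed the test. Levels are CPM, counts relative to all reads counted in microRNA arms with TMM scaling, and a read stands for a strand whatever its length. miR-222-3p stood at 6941, 6736 and 6232 CPM in the SCI libraries, against 7597, 8198 and 7062 CPM in the control libraries. All 3 SCI libraries lay below all 3 control libraries, which also held for 76 of the 690 arms tested (11%). That separation depended on TMM scaling. Relative to the reads counted in microRNA arms without it, SCI 1 lay above control 3 and the groups overlapped. The group means were 6636 ± 365 CPM in SCI and 7619 ± 568 CPM in control (SD, n = 3 each), a log2 fold change of -0.20 ± 0.11 (SE) with an adjusted p of 0.464 in edgeR's quasi-likelihood test. Ranked by mean level, miR-222-3p was in place 28 of 690.

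miR-221-3p stood at 6207, 5363 and 5309 CPM in the SCI libraries, against 6966, 7189 and 5999.6 CPM in the control libraries. SCI 1 lay above control 3, so the groups overlapped, and 2 of 3 SCI libraries lay below every control library. The means were 5627 ± 504 CPM in SCI and 6718 ± 632 CPM in control (SD, n = 3 each), a log2 fold change of -0.26 ± 0.12 with an edgeR adjusted p of 0.382. miR-221-3p was in place 34 of 690. In each library the 3p arms rested on 57749 to 115904 reads of miR-221-3p and 65857 to 134740 reads of miR-222-3p, so counting error was small beside the spread between mice.

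The 5p strands were scarce. miR-221-5p stood at 42.0, 63.8 and 41.8 CPM in the SCI libraries, against 54.7, 70.1 and 60.5 CPM in the control libraries (log2 fold change -0.33 ± 0.21, edgeR adjusted p = 0.520). SCI 2 was the second highest of the 6 libraries, while SCI 1 and SCI 3 lay below every control library. miR-222-5p stood at 25.8, 19.2 and 20.4 CPM in the SCI libraries, against 29.2, 20.0 and 21.3 CPM in the control libraries (log2 fold change -0.11 ± 0.21, edgeR adjusted p = 0.820). Its groups overlapped. The arms were in places 284 and 351 of 690, with 488 to 1154 reads of miR-221-5p and 161 to 486 reads of miR-222-5p per library.

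**Figure D1:**
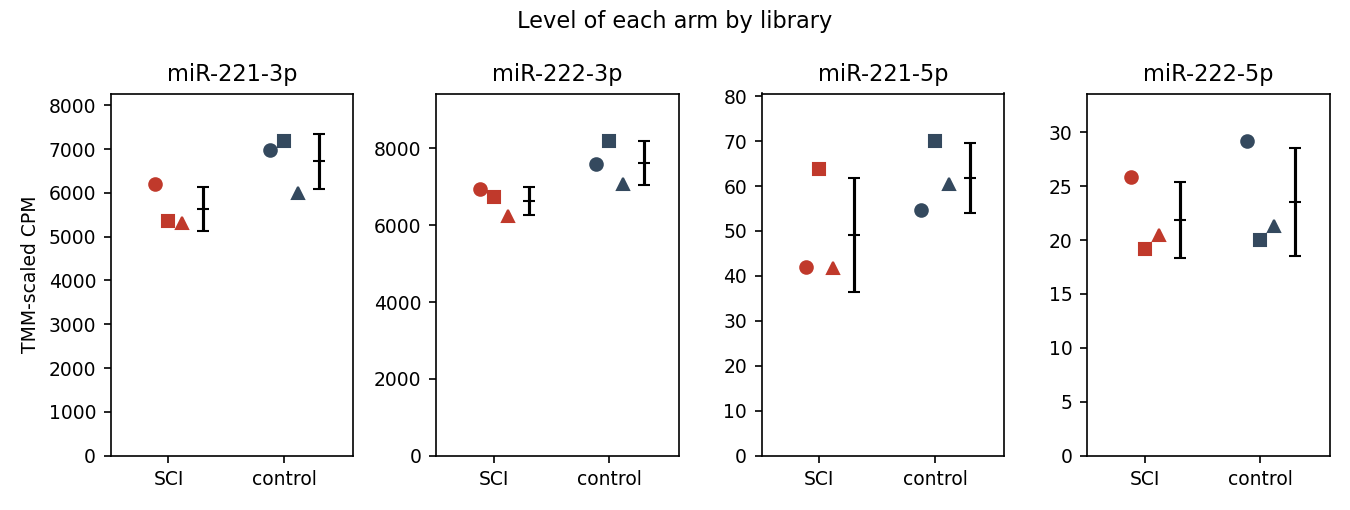
Level of each arm in TMM-scaled CPM (y axis, from 0) in the SCI and control libraries (x axis); points are libraries, with a symbol for each replicate number, and bars show the mean ± SD of 3 libraries. With this scaling the 3 SCI libraries of miR-222-3p sit at 6232 to 6941 CPM, below the control libraries at 7062 to 8198 CPM. The groups overlap for the other 3 arms.

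The members were not set apart from the other arms by the test. The edgeR test passed 0 of 690 arms (0%) at an adjusted p under 0.05 and 97 (14.1%) at an unadjusted p under 0.05, and none of the 4 member arms was among those 97. limma-voom passed 0 (93 or 13.5% unadjusted) and DESeq2 passed 11 (1.59%, and 88 or 12.8% unadjusted), with adjusted p of 0.475, 0.550, 0.497 and 0.814 in DESeq2 for miR-221-3p, miR-222-3p, miR-221-5p and miR-222-5p. All 4 member arms had a log2 fold change below 0, as had 51.9% of all arms, and the median over all arms was -0.023. Scaling by the total count moved all arms up by 0.12, and the members then stood at -0.14, -0.085, -0.21 and 0.0036 in the same order, so the sign of miR-222-5p turned. The samples are given by the labels as collected individually, and p-values measure the spread between these samples. In bulk tissue, fewer cells of a type and less RNA per cell cannot be told apart.

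**Figure D2:**
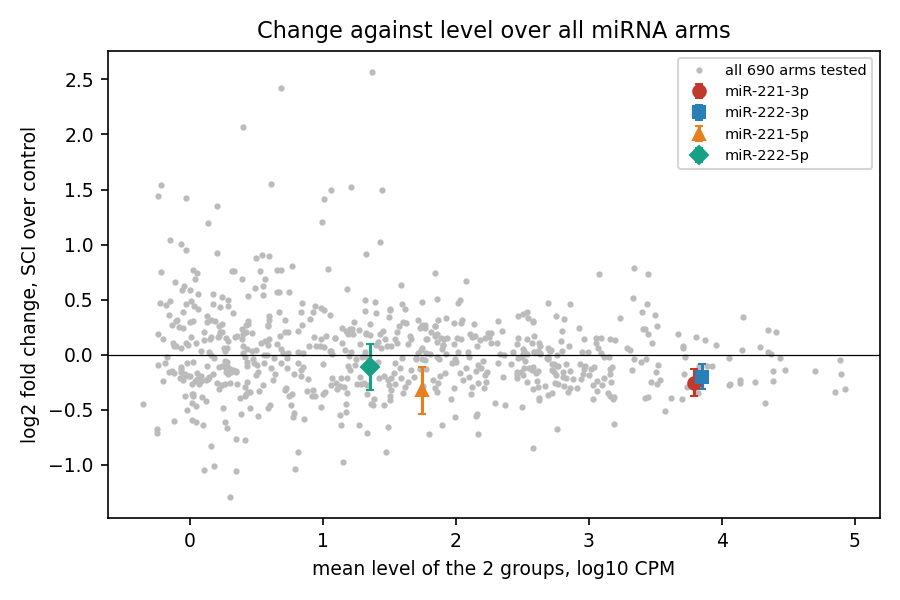
Log2 fold change of SCI over control (y axis) against the mean level of both groups in log10 CPM (x axis) for the 690 arms tested; coloured symbols with SE bars are the 4 member arms. The 3p arms sit among the most abundant arms, a little below 0 at -0.26 and -0.20, inside the cloud of other abundant arms.

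Counting an arm by its most abundant read alone changed the picture for miR-222-3p more than for miR-221-3p. By that count the log2 fold change of miR-222-3p was -0.043, against -0.20 for all of its reads, and that of miR-221-3p was -0.24, against -0.26. That read made up 35.4% ± 1.78 of miR-222-3p reads in SCI libraries and 32.2% ± 1.19 in control libraries, whereas the most abundant read of miR-221-3p made up 50.9% ± 0.731 in SCI libraries and 51.1% ± 1.49 in control libraries (SD, n = 3 each).

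The summed levels of several marker lists of the tissue were lower in SCI libraries, although edgeR passed none of their members. All 6 neuronal microRNAs on a list of markers were detected in every library, and their summed level was 177043 to 192301 CPM in SCI libraries, against 206062 to 229102 CPM in control libraries. That sum is mostly miR-128-3p and miR-9-5p. Of the 6, 4 had a log2 fold change below 0 and 2 above it, miR-124-3p, its 3 hairpins counted together, at 0.34 and miR-137-3p at 0.16. The 2 mural cell microRNAs, miR-143-3p and miR-145a-5p of vascular smooth muscle and pericytes, summed to 3385 to 3708 CPM in SCI libraries and 4558 to 5229 CPM in control libraries. The 2 endothelial microRNAs, both arms of miR-126a, summed to 11691 to 15259 CPM in SCI libraries and 12753 to 17940 CPM in control libraries. The 3 oligodendrocyte microRNAs summed to 5638 to 6415 CPM in SCI libraries and 6435 to 8763 CPM in control libraries. With TMM scaling the groups did not overlap for the neuronal, mural and oligodendrocyte sums and overlapped for the endothelial sum. The oligodendrocyte sums were separated by a small margin, 6415 against 6435 CPM, and overlapped without TMM scaling. Of single arms, 11% had all 3 SCI libraries below all 3 control libraries, and how often sums do so was not tested. Taken singly, each oligodendrocyte and endothelial member overlapped between the groups. No marker was at 0 in any library. Of these 13 microRNAs edgeR and limma-voom passed 0 over all arms and DESeq2 passed 1, miR-143-3p, beside 1.59% of all arms. In edgeR 4 of the 13 had an unadjusted p under 0.05, beside 14.1% of all arms. The part of these cell types in the levels of miR-221 and miR-222 was not tested.

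Markers of other tissues were low. The 3 erythroid microRNAs summed to 480 to 1280 CPM in SCI libraries and 600.1 to 978 CPM in control libraries, and the 3 myeloid ones to 224 to 285 CPM and 220.2 to 450 CPM. The 2 choroid plexus microRNAs summed to 653 to 1221 CPM in SCI libraries and 799 to 1238 CPM in control libraries, and the 3 muscle ones to 545 to 614 CPM and 581 to 655 CPM. The 3 epithelial microRNAs summed to 46.0 to 55.9 CPM in SCI libraries and 61.4 to 114 CPM in control libraries, without overlap. All 3 SCI libraries lay below all 3 control libraries for 11% of single arms.

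A list of 16 microRNAs of blood vessels, the tissue in which the pair is best known, had 6 members higher and 10 lower in SCI, with a median log2 fold change of -0.12 beside -0.023 over all arms. edgeR and limma-voom passed 0 of them over all arms, and DESeq2 passed 1, miR-143-3p, beside 1.59% of all arms. In edgeR 2 of the 16 had an unadjusted p under 0.05, beside 14.1% of all arms. miR-143-3p, abundant in smooth muscle, averaged 3074 ± 147 CPM in SCI and 4370 ± 355 CPM in control (SD, n = 3 each; edgeR log2 fold change -0.51 ± 0.11, adjusted p = 0.156). miR-27a-3p, of a cluster expressed in endothelium, averaged 1235 ± 103 CPM in SCI and 1567 ± 143 CPM in control (-0.34 ± 0.13, adjusted p = 0.280). Both had larger differences than the 3p arms of miR-221 and miR-222, and a difference between these differences was not tested. Of the 127 arms of hairpins on the X chromosome, 66 entered the test, with 29 higher, 37 lower and a median of -0.074. edgeR, DESeq2 and limma-voom passed 0 of them, and 5 had an unadjusted p under 0.05 in edgeR, beside 14.1% of all arms.

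The arms whose levels ran most like the 3p strands across the 6 libraries were found by the root mean square difference of log2 CPM, each arm centred on its own mean. For miR-221-3p these were miR-344d-3-5p at 0.043, let-7e-3p at 0.051 and miR-361-3p at 0.058, and for miR-222-3p they were let-7g-5p at 0.032, let-7f-1-3p at 0.045 and miR-361-3p at 0.055. The 3p strands differed from each other by 0.065, which put miR-222-3p in place 5 for miR-221-3p and miR-221-3p in place 8 for miR-222-3p. The median over all arms was 0.273 for miR-221-3p and 0.247 for miR-222-3p. The 5p arms were less like their own 3p arms, at 0.268 for Mir221 and 0.217 for Mir222, in arms with few reads.

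The 3p strands were held at nearly equal levels. In SCI libraries there were 1.12, 1.26 and 1.17 reads of miR-222-3p per read of miR-221-3p, against 1.09, 1.14 and 1.18 in control libraries. miR-222-3p was the higher in all 6 libraries, by a small margin, and the groups overlapped. The log2 ratio was 0.057 higher in SCI (two-sided exact permutation test, p = 0.5, with 0.1 the smallest p that 3 against 3 allow). When a strand was counted by its most abundant read alone, the difference was 0.20 and the exact p was 0.1. Ligation and PCR can favour a sequence, so a ratio between strands need not be their ratio in the tissue.

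Both hairpins gave almost only 3p reads. Mir221 gave 148, 84.0 and 127 reads of the 3p arm per read of the 5p arm in SCI libraries, against 127, 103 and 99.2 in control libraries. Mir222 gave 269, 351 and 305 in SCI libraries, against 260.1, 409 and 331 in control libraries. The groups overlapped for both. Over all libraries the 3p arm made up 99.1% of Mir221 reads and 99.7% of Mir222 reads, places 33 and 19 of 279 hairpins by that share. Only hairpins with a mean of at least 10 reads in both arms were ranked, so those with fewer reads of an arm are left out. The log2 ratio differed by 0.095 ± 0.25 for Mir221 (limma adjusted p = 0.885) and by -0.097 ± 0.22 for Mir222 (limma adjusted p = 0.859), and limma passed 0 of 279 hairpins (0%, with 30 or 10.8% at an unadjusted p under 0.05).

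The strands with a shared seed ended differently. The 3 most abundant reads of each are shown, with the seed in capitals and T for U as in the reads.
miR-221-3p read 1: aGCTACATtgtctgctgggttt
miR-221-3p read 2: aGCTACATtgtctgctgggtttc
miR-221-3p read 3: aGCTACATtgtctgctgggtt
miR-222-3p read 1: aGCTACATctggctactgggt
miR-222-3p read 2: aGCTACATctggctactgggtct
miR-222-3p read 3: aGCTACATctggctactgggtc
Neither most abundant read was the RefSeq form, which was the second read of each strand. The first read of miR-221-3p was 22 nt long, 1 base shorter than the RefSeq form, and the first read of miR-222-3p was 21 nt long, 2 bases shorter.

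miR-221-3p was dominated by that end. The end 1 base short of RefSeq took 51.6%, 51.8% and 50.4% of its reads in SCI libraries, against 53.1%, 50.9% and 50.2% in control libraries. The groups overlapped and the log2 ratio of this end to the others differed by -0.0095 ± 0.11 (limma adjusted p = 0.975). The RefSeq end took 25.9%, 27.4% and 28.6% in SCI libraries, against 31.9%, 28.7% and 29.0% in control libraries, without overlap and lower in SCI, as for 7.15% of the 2672 ends of all arms tested one by one.

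miR-222-3p was spread over more ends, with 2 peaks. The end 2 bases short of RefSeq took 38.8%, 35.4% and 36.2% of its reads in SCI libraries, against 32.6%, 33.2% and 34.7% in control libraries. The end at the RefSeq position took 19.9%, 22.1% and 21.7% in SCI libraries, against 24.8%, 23.5% and 21.9% in control libraries, and the end 1 base beyond it took 5.74%, 9.05% and 8.16% in SCI libraries, against 11.0%, 10.4% and 9.08% in control libraries. All 3 SCI libraries lay above the control libraries at the shorter end and below them, by a small margin, at the end 1 base beyond RefSeq. At the RefSeq end SCI 2 lay above control 3 and the groups overlapped. For the end 1 base beyond RefSeq the log2 ratio differed by -0.47 ± 0.22 and did not pass (limma adjusted p = 0.602). Of the 2672 ends of all arms, 7.15% were lower in all SCI libraries. For the main end the log2 ratio differed by 0.21 ± 0.12, which did not pass (limma adjusted p = 0.586). Over all arms the main end was higher in all SCI libraries for 6.68% of 554 arms, and the groups did not overlap in either direction for 21.1%. limma passed 0 of the 554 arms (0%) with 59 (10.6%) at an unadjusted p under 0.05.

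The mean length of miR-222-3p reads followed these ends, at 21.6, 21.8 and 21.8 nt in SCI libraries, against 22.0, 21.9 and 21.8 nt in control libraries. SCI 1 held the shortest reads, and the groups overlapped at SCI 2 and control 3. miR-221-3p averaged 22.01 ± 0.027 nt in SCI and 22.07 ± 0.057 nt in control (SD, n = 3 each). When every 3′ end of every arm was tested, limma passed 0 of 2672 ends (0%, and 229 or 8.57% unadjusted). The 95% Wilson interval of a share of 3′ ends in 1 library was at most 0.815 percentage points wide for miR-221-3p and 0.719 points for miR-222-3p.

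**Figure D3:**
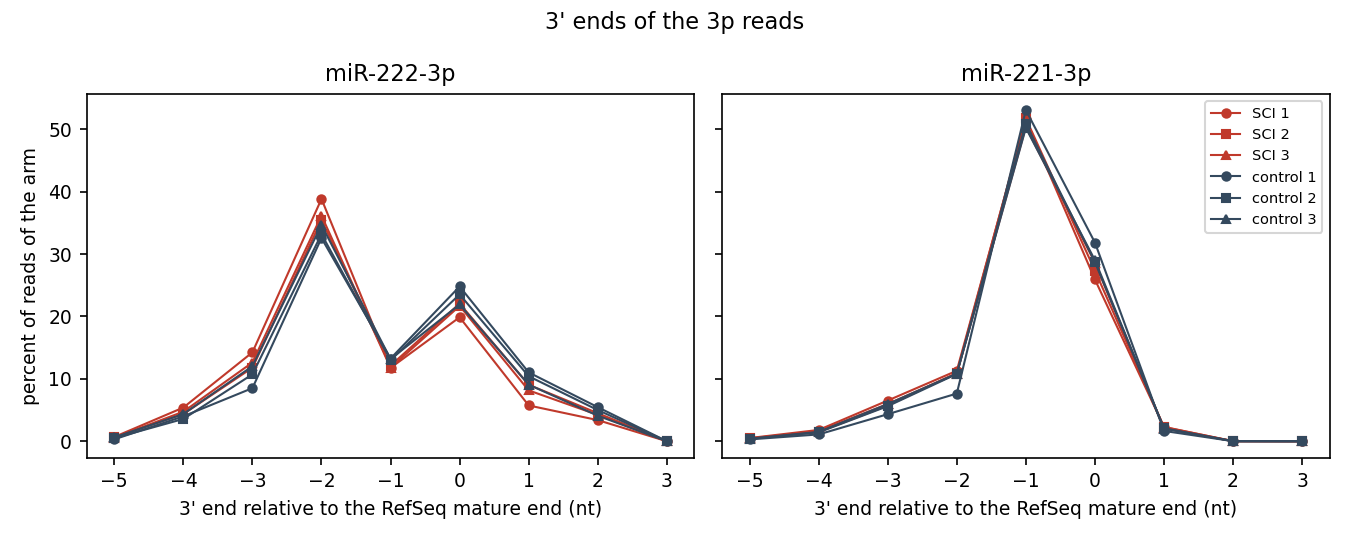
Share of each 3p arm's reads (y axis, percent) by 3′ end relative to the RefSeq mature end in nt (x axis); each line is a library, SCI in red and control in dark blue. miR-222-3p has peaks 2 bases before the RefSeq end and at it, the first of which is higher in the SCI libraries (35.4% to 38.8%) than in the control libraries (32.6% to 34.7%), and miR-221-3p has a single peak 1 base before it, at 50.2% to 53.1%.

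Within every library the main end took a smaller share of miR-222-3p than of miR-221-3p, 35.1% ± 2.26 against 51.3% ± 1.05 (SD over 6 libraries). The main end was the smaller in 6 of 6 libraries (two-sided exact sign-flip test over libraries, p = 0.03125, the smallest that 6 allow). Among 554 arms the share of the main end was in place 504 for miR-222-3p and in place 302 for miR-221-3p, with a median of 53.5% over all arms. This test and those on starts and added bases between the strands, 5 in all, were chosen after the values were seen, and each gave the same p, also after Benjamini-Hochberg adjustment.

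The 5′ start, which sets the seed, was nearly fixed in both 3p strands. The main start of miR-221-3p took 99.41%, 99.37% and 99.38% of reads in SCI libraries, against 99.30%, 99.32% and 99.29% in control libraries. By this share it was in place 2 of the 420 arms with a mean of at least 10 reads at the main start and elsewhere. The SCI libraries lay above the control libraries, as for 30.5% of these arms, by a difference of means of 0.0845 percentage points, and the log2 ratio differed by 0.19 ± 0.080 (limma adjusted p = 0.214). The main start of miR-222-3p took 97.3%, 97.4% and 97.3% in SCI libraries, against 97.3%, 97.5% and 97.6% in control libraries (log2 ratio -0.083 ± 0.089, limma adjusted p = 0.645). miR-222-3p held reads that began earlier, 1 base before the main start in 1.18% ± 0.060 of SCI reads and 1.08% ± 0.063 of control reads, and 2 bases before it in 0.940% ± 0.054 of SCI reads and 0.817% ± 0.093 of control reads (SD, n = 3 each). miR-221-3p had 0.074% of its SCI reads and 0.055% of its control reads 1 base before its main start. Over the 6 libraries the main start took 97.4% ± 0.133 of miR-222-3p and 99.3% ± 0.049 of miR-221-3p (SD), and it was the smaller in miR-222-3p in 6 of 6 libraries (exact sign-flip p = 0.03125).

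The start fit as a whole leaned to SCI. Over 420 arms, limma passed 39 (9.29%), 37 with a higher share of the main start in SCI and 2 with a lower one, the median log2 ratio was 0.13, and in 30.5% of arms every SCI library exceeded every control library. The count depended on single libraries, with 15 passing without SCI 1, 45 without control 3 and 0 without any of the other 4. Reads of 30 to 34 nt, longer than microRNAs, took 0.584% to 3.66% of SCI libraries and 0.543% to 1.33% of control libraries, and their part in the starts was not tested.

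The 5p strands had a second start each, which puts other bases at the seed positions. Whether reads from the second start guide Argonaute was not tested. The reads are shown from the main start and from the second start, with bases 2 to 8 in capitals.
miR-221-5p main start: aCCTGGCAtacaatgtagatttctgt
miR-221-5p second start: cATACAATgtagatttct
miR-222-5p main start: tCAGTAGCcagtgtagatcctg
miR-222-5p second start: gGCTCAGTagccagtgtagatcc
The second start of miR-221-5p lay 6 bases inside the main start and that of miR-222-5p lay 3 bases before it, so bases 2 to 8 differed between the starts of both strands.

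The second start of miR-221-5p was less frequent after transection. It took 3.28%, 3.28% and 2.91% of the strand's reads in SCI libraries, against 6.26%, 7.99% and 5.55% in control libraries. Every SCI library lay below every control library, on 16, 37 and 19 reads in SCI libraries and 57, 45 and 64 reads in control libraries. The widest 95% Wilson interval in each group ran from 2.03% to 5.26% in SCI 1 and from 6.03% to 10.5% in control 2. Those of control 1 (4.87% to 8.03%) and control 3 (4.37% to 7.02%) overlapped that of SCI 1. The interval of control 3 also overlapped those of SCI 2 (2.39% to 4.49%) and SCI 3 (1.87% to 4.51%). In a fit of every start of every arm, chosen after the values were seen, its log2 ratio fell by 1.08 ± 0.17 (limma adjusted p = 0.0215). The same fit passed 165 of 1425 starts (11.6%), 43 higher and 122 lower in SCI, and all 3 SCI libraries lay below all control libraries for 23.2% of starts, so such a difference was not rare. The call was lost without SCI 1, SCI 2, SCI 3, control 1 or control 2 (adjusted p 0.0597 to 0.0795) and kept without control 3 (0.0204), and the fit then passed 53 starts without SCI 1, 2 without SCI 2, 172 without control 3 and 0 without each of the others. The most abundant read of this start was 18 nt long, the shortest length counted, so shorter products of it are not in the share.

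The main start of miR-221-5p took 91.4%, 94.0% and 94.3% of reads in SCI libraries, against 89.3%, 87.0% and 89.9% in control libraries. The groups did not overlap, as in 30.5% of arms in this direction, and the log2 ratio differed by 0.81 ± 0.21 (limma adjusted p = 0.0712). Without SCI 1 the adjusted p was 0.0447, and without each of the other 5 libraries it was 0.0981 to 0.200, with log2 ratios of 0.69 to 0.89. In the fit of every start it was 0.0540 without SCI 1. This share contains the difference in the second start, since the shares of a strand add up to 100%.

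The second start of miR-222-5p took 33.7%, 18.6% and 24.1% of reads in SCI libraries, against 26.3%, 16.8% and 18.2% in control libraries. SCI 1 was the highest, and the groups overlapped (log2 ratio 0.40 ± 0.35, limma adjusted p = 0.549). Leaving out 1 library at a time gave log2 ratios between 0.093 (SCI 1 left out) and 0.67 (SCI 2 left out), with adjusted p of 0.293 to 0.910. The main start took 61.0%, 74.3% and 68.3% in SCI libraries, against 66.0%, 75.8% and 74.4% in control libraries (limma adjusted p = 0.630). With 161 to 486 reads per library, the Wilson interval of a start share was up to 13.1 percentage points wide.

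**Figure D4:**
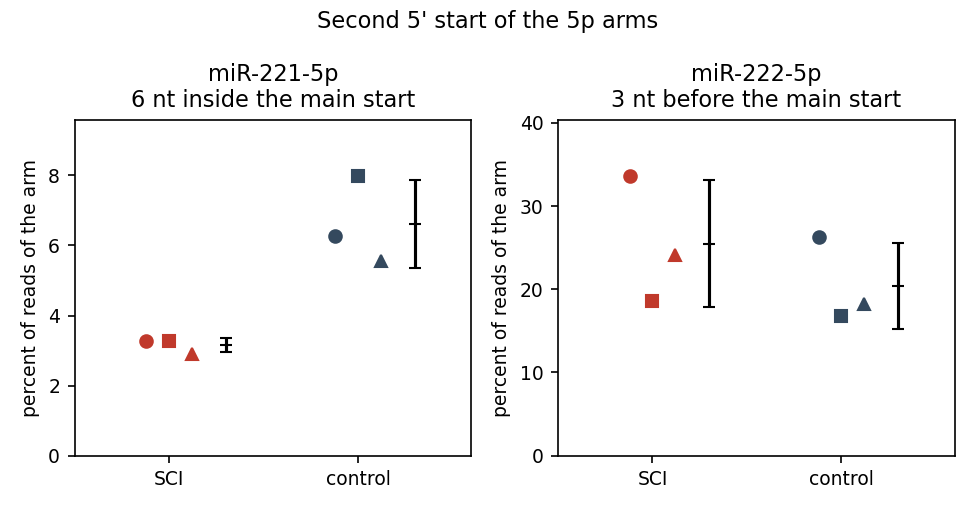
Share of the reads of each 5p arm (y axis, percent, from 0) that began at its second 5′ start, in SCI and control libraries (x axis); points are libraries and bars show the mean ± SD of 3. For miR-221-5p the SCI libraries lie at 2.91% to 3.28%, below the control libraries at 5.55% to 7.99%, and for miR-222-5p the groups overlap.

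Some reads ended in 1 to 3 further bases that the hairpin does not encode, and these were not in the counts above. They made up 19.4%, 18.7% and 18.8% of tailed and untailed miR-221-3p reads in SCI libraries, against 18.6%, 18.2% and 17.3% in control libraries. For miR-222-3p they made up 16.6%, 17.8% and 17.5% in SCI libraries, against 17.2%, 16.7% and 15.8% in control libraries. Every SCI library exceeded every control library for miR-221-3p, as for 14.7% of 509 arms, and the groups overlapped for miR-222-3p. The log2 ratio of tailed to untailed reads differed by 0.089 ± 0.10 for miR-221-3p (limma adjusted p = 0.757) and by 0.076 ± 0.11 for miR-222-3p (limma adjusted p = 0.780), and limma passed 0 of 509 arms (0%, and 34 or 6.68% unadjusted). The 5p arms had fewer tails, 3.76% in SCI and 3.54% in control for miR-221-5p, and 10.9% in SCI and 12.9% in control for miR-222-5p.

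The 3p strands carried different bases. Only U had been added in 4.27% ± 0.410 of miR-222-3p reads and in 12.6% ± 0.619 of miR-221-3p reads, and only A in 9.28% ± 0.570 of miR-222-3p reads and in 3.24% ± 0.304 of miR-221-3p reads (SD over 6 libraries). With any base added, the share was 16.9% ± 0.705 for miR-222-3p and 18.5% ± 0.714 for miR-221-3p. In miR-222-3p all tails and U tails were the rarer and A tails the more frequent in 6 of 6 libraries (exact sign-flip p = 0.03125 each). An added base that matches the next hairpin base is not visible. This hides U at several ends of both strands, among them the miR-222-3p ends 3 bases and 1 base short of RefSeq. It also hides A at the RefSeq end of miR-221-3p. The part of hidden tails in these pooled differences was not tested. By U tails miR-221-3p was in place 127 of 418 arms, and by A tails miR-222-3p was in place 111 of 391. Tails of only C or only G made up 0.128% to 0.536% of reads of either strand. Added C is not visible at the main end of either strand, where the hairpin goes on with C. How well these tails measure errors at read ends was not tested.

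Between the groups, A tails of miR-222-3p took 9.75%, 9.94% and 9.57% of reads in SCI libraries, against 8.46%, 8.85% and 9.09% in control libraries. Every SCI library exceeded every control library, as for 19.9% of 391 arms, and the difference of 0.16 ± 0.11 in log2 ratio did not pass (limma adjusted p = 0.545). U tails of miR-221-3p took 13.0%, 12.1% and 13.3% in SCI libraries, against 13.0%, 12.3% and 11.7% in control libraries, with overlap (limma adjusted p = 0.968). For both kinds of tail limma passed 0 arms (0%), with 26 of 418 (6.22%) unadjusted for U and 53 of 391 (13.6%) for A.

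**Figure D5:**
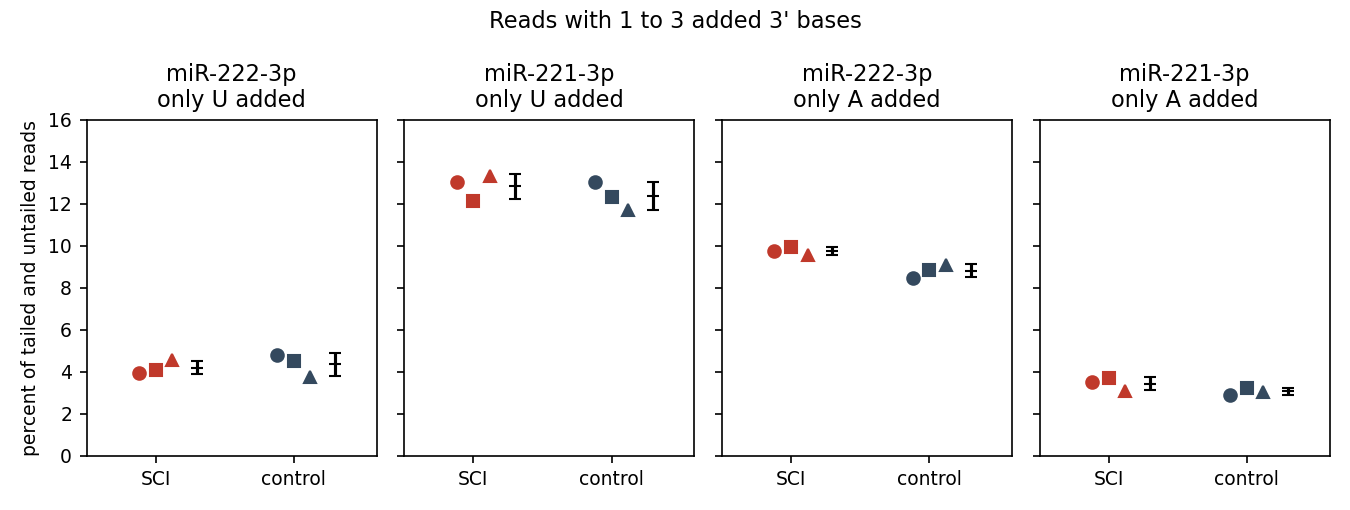
Reads with 1 to 3 added bases that were all U or all A, as percent of the arm's tailed and untailed reads (y axis, from 0), in SCI and control libraries (x axis); points are libraries and bars show the mean ± SD of 3. U tails average 4.27% for miR-222-3p and 12.6% for miR-221-3p, and A tails 9.28% for miR-222-3p and 3.24% for miR-221-3p, over the 6 libraries.

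The kind of tail went with the end to which it was added. A U added where the hairpin itself continues with U reads as a longer untailed strand and cannot be seen, and likewise for A. For this reason ends were compared where the next hairpin base was C or G. An end that closes on a U or A of the hairpin can in turn hold shorter strands with that base added, which was not tested. This applies to each of these compared ends except the miR-222-3p end 4 bases short of RefSeq. At the main end of miR-222-3p, followed by C, 2.96% to 3.63% of reads had added U and 5.42% to 6.29% had added A over the 6 libraries. At the main end of miR-221-3p, also followed by C, 13.4% to 15.1% had added U and 2.78% to 3.67% had added A. Within miR-222-3p the order turned at the longer RefSeq end, again followed by C, where 9.04% to 10.6% had added U and 1.73% to 2.48% had added A. At the end 2 bases beyond RefSeq, followed by G, 16.4% to 19.6% had added U and 1.93% to 2.40% had added A. At its end 4 bases short of RefSeq, also followed by G, 1.98% to 2.78% had added U and 7.67% to 11.6% had added A. The longer end of miR-221-3p, 1 base beyond RefSeq and followed by G, did not have that excess of U, with 2.59% to 4.05% added U and 3.20% to 4.27% added A. A reached 23.5% to 27.6% at the miR-222-3p end 3 bases short of RefSeq, where the next base is U and added U is not visible. The pooled difference between the strands thus sums ends that carried different tails.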

How the data were processed

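Small RNA from the sensorimotor cortex of 3 SCI and 3 control mice was sequenced from HD adapters, which carry degenerate bases, per the labels' protocols. The authors deposited a table of distinct reads with the raw count of each per library, per the file headers. The submitters' processing notes name the build GRCm38. How adapters were trimmed and reads filtered is not given in the sources used here, and shares of 5′ starts and of added 3′ bases could depend on these steps and on the removal of degenerate bases, which was not tested. Reads were 17 to 34 nt long.

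Reads of 18 to 26 nt were matched here, sense and without mismatch, to the hairpins of GENCODE M21 (GRCm38), and counts were summed per arm, 5′ start and 3′ end. Positions come from this annotation and mature sequences from RefSeq on GRCm38. Tailed reads matched after removal of 1 to 3 last bases. Arms were merged where they had the same most abundant read or where 50% or more of the smaller one's reads were shared. Other reads found in several arms were left out. Levels were compared by the quasi-likelihood test of edgeR 4.0.16 under R 4.3.3, with TMM scaling and with low counts removed by filterByExpr at 10. Its SE is the size of the log2 fold change over the square root of its F statistic. Shares of arms, starts, ends and tails were tested with limma 3.58.1 on log2 ratios of counts with a pseudocount of 0.5, over all features with a mean of at least 10 reads in both classes. A feature passed at a p under 0.05 after Benjamini-Hochberg adjustment. The main start or end has the highest mean share over the 6 libraries. Single ratios were tested with exact permutation or sign-flip tests. The 95% Wilson intervals cover counting error within 1 library only, and copies of a molecule made by PCR were not told apart here. Alternatives were other scalings, DESeq2 1.42.0, limma-voom, other filters and pseudocounts, all read lengths, tailed or shared reads counted, the most abundant read alone, a replicate block and leaving out each library. The fits were tested on simulated data. Python 3.11.15, pandas 2.3.3, numpy 2.4.6, scipy 1.17.1 and matplotlib 3.10.9 were used.

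The members, lists and markers were chosen with earlier results of these data known. Named were the 4 arms, arms with the same seed, the 3 arms most like each 3p arm, up to 4 list members of smallest unadjusted p where none passed, and the 3 most abundant reads of each 3p arm. The second starts of the 5p arms were named after their values were seen.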

Additional observations from a re-analysis of the deposited data

How the results depend on the processing

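Alternatives were counted for arm levels, ratios between arms, and the main 3′ ends, main 5′ starts and added bases of the 3p arms. Of these 158 values, 152 kept the direction and side of the threshold. The other 6 turned in sign with none passing (smallest adjusted p of the 158 values 0.0997). The log2 fold change of miR-222-5p was 0.0036 with total count scaling. Starts of the 5p arms, and U and A tails taken singly, were not among the 158 values. In the fit of main starts, that of miR-221-5p passed only without SCI 1 (limma adjusted p = 0.0447). Its second start kept its call without control 3 (0.0204) and lost it without each other library (0.0597 to 0.0795). DESeq2 passed 11 arms and leaving out the filter on low counts passed 30, while the other scalings, limma-voom and the read choices passed 0. When each library was left out in turn, 0 to 7 arms passed (2 without SCI 1, 7 without SCI 2). Log2 differences then ranged from -0.33 to -0.21 for miR-221-3p, from -0.25 to -0.14 for miR-222-3p, from -0.57 to -0.21 for miR-221-5p and from -0.24 to 0.068 for miR-222-5p (0.068 without control 1). The 3p over 5p ratio ranged from -0.077 (without SCI 1) to 0.33 for Mir221 and from -0.26 to 0.062 (without control 2) for Mir222. The main 3′ end ranged from -0.044 to 0.039 for miR-221-3p (0.015 without SCI 3, 0.039 without control 1) and from 0.15 to 0.25 for miR-222-3p. The main 5′ start ranged from 0.16 to 0.21 for miR-221-3p and from -0.13 to -0.052 for miR-222-3p. Added bases ranged from 0.051 to 0.12 for miR-221-3p and from 0.036 to 0.11 for miR-222-3p, and the miR-222-3p over miR-221-3p ratio from 0.013 to 0.097. U tails of miR-222-3p ranged from -0.17 to 0.020 (without control 1), against -0.057 with all libraries. The cause of these changes of sign was not tested. The 5p arms, with at most 1154 reads per library, limit what their shares can show.

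Libraries with the same replicate number correlated at 0.23, -0.066 and -0.096 in their deviations from the group means. Those with different numbers correlated at -0.20 (SCI 1 with control 3) to 0.28 (SCI 2 with control 3). With 3 libraries per group, these values cannot decide whether the replicate numbers pair the libraries. With the replicate number as a block the values were -0.26 for miR-221-3p, -0.20 for miR-222-3p, -0.35 for miR-221-5p and -0.10 for miR-222-5p, 0 arms passed, and the second start of miR-221-5p stood at -1.08 (adjusted p = 0.0388). The block changed no other call.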
